A study of Homo sapiens with 8 samples.

Results

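The genes described here are PTGS2, CSF1, IL6, IL11, LIF, CXCL1, CXCL2, NFKBIA, TNFAIP3 and RELB, 10 of the 14556 genes listed in a normalized table of mRNA abundance. They were chosen by name, as an inflammatory enzyme, 6 secreted factors and 3 parts of the NF-kB system that produce or answer the same signals. The choice was made with earlier results of these data known. All 10 were in the table, and 8 passed the filter on low values (2 or more of the 8 libraries with 1 CPM or above). IL6 and CXCL2 did not pass and are given as reads only. CPM is the read count of a gene scaled to a common library size, without correction for gene length.

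The samples were Calu-6 cells, a human lung carcinoma line labelled as non-small-cell lung cancer with a WT genotype. They had been given DMSO, the vehicle, or 1 µM KI696, a compound that keeps KEAP1 from binding NRF2, a transcription factor of the antioxidant response. Poly(A) RNA was sequenced after 24 or 48 h, with 2 libraries in each of the 4 groups (DMSO 24 h, KI696 24 h, DMSO 48 h and KI696 48 h). All 8 libraries come from this single line, and the labels name no second line and no inflammatory stimulus. No label states that replicate libraries derive from independent cultures, and p-values thus measure the spread between libraries, which may be technical. Letters A and B follow column order and pair no libraries across groups.

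NF-kB is a family of dimeric transcription factors (RELA, RELB, REL, NFKB1 and NFKB2) held inactive in the cytoplasm by IkB proteins. Signals from TNF, interleukin 1 or Toll-like receptors activate the IKK kinases, which mark IkB for destruction and let the dimers enter the nucleus. Among the genes then transcribed are cytokines, chemokines and PTGS2 (cyclooxygenase 2, which starts prostaglandin synthesis), as well as NFKBIA and TNFAIP3, which switch the signal off again.

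NF-kB dimers bind short kB sites, and proximal promoters are shown because they carry these sites in several of the chosen genes. RefSeq promoters (GRCh38.p14) matched 7 of the 10 genes by symbol, and CSF1, LIF and RELB were not among the matches. The 250 bases before each annotated start were searched on both strands for the 10-letter kB consensus, which 5.21% of 35116 promoters held over the same length. Below are the 120 bases before the start for the genes with a match and for PTGS2, 5′ to 3′ on the gene's strand, with matches to the consensus in capitals.
PTGS2, chr1:186680424-186680543, minus strand: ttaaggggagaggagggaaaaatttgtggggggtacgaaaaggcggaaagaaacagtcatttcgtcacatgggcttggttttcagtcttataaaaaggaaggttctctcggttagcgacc
CXCL1, chr4:73869273-73869392, plus strand: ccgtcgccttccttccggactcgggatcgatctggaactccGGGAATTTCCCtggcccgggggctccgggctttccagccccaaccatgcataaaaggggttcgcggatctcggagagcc
CXCL2, chr4:74099196-74099315, minus strand: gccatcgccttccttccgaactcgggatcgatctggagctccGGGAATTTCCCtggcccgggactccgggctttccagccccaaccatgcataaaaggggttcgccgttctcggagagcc
IL6, chr7:22727080-22727199, plus strand: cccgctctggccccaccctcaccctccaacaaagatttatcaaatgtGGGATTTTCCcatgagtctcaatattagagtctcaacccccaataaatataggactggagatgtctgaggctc
NFKBIA, chr14:35404750-35404869, minus strand: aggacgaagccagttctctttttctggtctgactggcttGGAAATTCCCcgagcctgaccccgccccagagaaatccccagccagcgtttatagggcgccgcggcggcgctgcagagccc
TNFAIP3, chr6:137867139-137867258, plus strand: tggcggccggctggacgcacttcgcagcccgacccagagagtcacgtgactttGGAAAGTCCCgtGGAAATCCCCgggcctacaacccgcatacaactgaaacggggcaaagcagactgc
IL6 held 1 match, beginning 73 bases before the start. CXCL1 and CXCL2 each held overlapping matches on both strands at almost the same distance, the first 79 and 78 bases before the start. NFKBIA held 1, at 81 bases. TNFAIP3 held 2, at 67 and 55 bases. The windows of PTGS2 and IL11 held none. The antioxidant response element core TGACNNNGC, to which NRF2 dimers bind, was found in NFKBIA, 65 bases before its start, among these 7 genes, and in 10.9% of all promoters. The AP-1 motif TGANTCA was found in IL11, 96 bases before its start, and in 6.57% of all promoters. Distances are from the RefSeq starts. By the GENCODE gene positions given below, the matched sites of IL6, CXCL2 and TNFAIP3 lie inside the gene. Matches describe the letters in these windows and do not show binding.

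Libraries held 6974235 to 14170211 reads in the table, so that 3 reads correspond to 0.213 to 0.428 CPM. All 7 NRF2 target genes listed as a check of the treatment were higher with KI696 at both times, with median changes of 1.90 and 2.28 on the log2 scale. The library composition did not follow treatment alone. The mean log2 CPM of 8 lung lineage markers was 3.71 and 3.94 with DMSO at 24 h (A and B) and 0.54 and 0.86 with KI696. At 48 h it was 2.01 and 0.61 with DMSO and 3.09 and 0.10 with KI696, so both groups were split between A and B. Of the 6 epithelial markers, all were lower at 24 h and 3 at 48 h. Leukocyte markers PTPRC, ITGAM and CD3E had no row in the table under these symbols, so they were not analysed here. The 5 others summed to 29.6 to 49.7 CPM per library, with 1 of 3 tested lower at 24 h and 2 at 48 h. The fibroblast markers tested (COL1A1, COL3A1, PDGFRA, PDGFRB and LUM) were all lower at both times, and no endothelial marker passed the filter (the joint list summed to 92.2 to 129 CPM with KI696 and 228 to 285 CPM with DMSO). The part of these shifts in the results below was not tested, beyond fits with the lung lineage level of each library as a covariate. At 24 h this covariate itself differed between DMSO and KI696, so adding it can widen the error of the 24 h change. Of 2 genes described below, RIPK1 changed by −0.40 (SE 0.09) without it and −0.42 (SE 0.16) with it, and OSMR by −4.04 (SE 0.71) and −1.12 (SE 0.545). A call lost with the covariate is thus by itself no sign of dependence on lineage level. In bulk RNA, fewer cells of a type and less RNA per cell cannot be told apart.

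PTGS2 (chromosome 1, 186671791 to 186680427, minus strand, hg38) was the member with the highest level and the smallest error. Its level was 341 and 354 CPM in the DMSO libraries at 24 h and 196 and 197 CPM in the KI696 libraries. After 48 h it was 353 and 383 CPM with DMSO and 167 and 161 CPM with KI696. Every KI696 library lay far below every DMSO library. PTGS2 fell by 0.82 on the log2 scale at 24 h (SE 0.06, limma adjusted p = 3.99e-07) and by 1.17 at 48 h (SE 0.06, limma adjusted p = 1.64e-08), which is 43.4% and 55.5% less mRNA. These calls held in all 20 alternatives, including those with the lung lineage level of each library as a covariate, where the changes were −0.82 and −1.17. The change at 48 h minus that at 24 h was −0.34 (95% interval −0.52 to −0.17), which did not pass over all genes (limma adjusted p = 0.072). It passed with median-ratio scaling (−0.39) and without DMSO 48 h A (−0.40). In the DMSO libraries alone, the change from 24 to 48 h was 0.08 (SE 0.06, limma adjusted p = 0.42).

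Genes of prostanoid synthesis, transport, breakdown and reception were measured as a list of 23. PTGS2 is on this list and is counted below among the 16 tested and among those lower at both times. At 24 h 4 were higher and 7 lower (median change −0.45), or 4 and 4 with quantile scaling, and at 48 h 3 were higher and 5 lower (median −0.10). Over all 13213 genes tested, 18.1% were higher and 30.5% lower at 24 h (median −0.12). At 48 h 22.4% were higher and 26.4% lower (median −0.07). These shares are given for reading this and the later lists. Because the lists were chosen with earlier results of these data known, a count beyond these shares is no test of a list. HPGD, the dehydrogenase that inactivates prostaglandins, fell with PTGS2. Its level was 27.2 and 25.5 CPM with DMSO against 5.39 and 5.70 CPM with KI696 at 24 h, and 53.7 and 50.8 against 13.7 and 9.40 CPM at 48 h. HPGD fell by 2.20 (SE 0.16, limma adjusted p = 4.96e-07) and 2.18 (SE 0.16, limma adjusted p = 3.28e-07) on the log2 scale.

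The enzymes on either side of PTGS2 moved in different directions. PLA2G4A, the phospholipase that frees arachidonic acid, rose by 0.49 at 24 h and 0.61 at 48 h (limma adjusted p = 3.60e-04 and 5.26e-05). The call at 24 h was lost with the lung lineage covariate. PTGES, the inducible prostaglandin E synthase, fell by 0.54 and 0.41 (limma adjusted p = 0.0015 and 0.0089), and PTGES3, a cytosolic synthase also known as the cochaperone p23, rose by 0.67 and 0.77. The PTGES call at 48 h was lost without DMSO 48 h A, where the change was −0.20 (−0.62 without DMSO 48 h B), and that at 24 h with the covariate (−0.31). PTGER4, a receptor for prostaglandin E2, fell by 1.30 and 1.26, and its call at 24 h was lost with the covariate (−0.34). Without KI696 48 h B the PTGER4 change at 48 h was −0.74.

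CSF1 (chromosome 1, 109910242 to 109930992, plus strand), the growth factor of macrophages, was the only one of the 8 tested members that rose with KI696. Its level was 5.34 and 4.84 CPM with DMSO and 15.9 and 14.8 CPM with KI696 at 24 h. By 48 h it was 8.78 and 8.03 CPM with DMSO and 15.1 and 16.4 CPM with KI696. The 4 KI696 libraries sat close together, and the DMSO libraries were higher at 48 h than at 24 h. CSF1 rose by 1.55 on the log2 scale at 24 h (SE 0.16, limma adjusted p = 6.54e-06) and by 0.89 at 48 h (SE 0.16, limma adjusted p = 4.50e-04), a ratio of mean levels of 3.02 and 1.87. Both calls held in all 20 alternatives, with changes of 1.01 to 1.90 at 24 h and 0.63 to 1.08 at 48 h. The difference between the effects was −0.66 (95% interval −1.15 to −0.18, limma adjusted p = 0.16).

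In the DMSO libraries CSF1 rose by 0.70 from 24 to 48 h (SE 0.16, limma adjusted p = 0.015). That call was lost in 5 of 20 alternatives, among them without DMSO 24 h A (limma adjusted p = 0.067), DMSO 24 h B (0.11) or DMSO 48 h A (0.057). Of the other 7 colony-stimulating factors and receptors listed, 1 passed the filter. This was CSF2, the granulocyte and macrophage factor, with 6 and 9 reads with DMSO against 2 and 1 with KI696 at 24 h. At 48 h CSF2 had 11 and 26 reads with DMSO against 1 and 3 with KI696. CSF2 fell at 48 h (−2.09 on the log2 scale, SE 0.56, limma adjusted p = 0.0072), a call lost without DMSO 48 h B (−1.96, limma adjusted p = 0.055). At 24 h the change was −1.46 (limma adjusted p = 0.044), and this call was lost with TMM scaling (−1.40), with the covariate (−1.96) and without each library except those of KI696 48 h (−1.78 to −1.14). CSF1R, the receptor of CSF1, had 1 to 9 reads per library and was not tested.

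**Figure D1:**
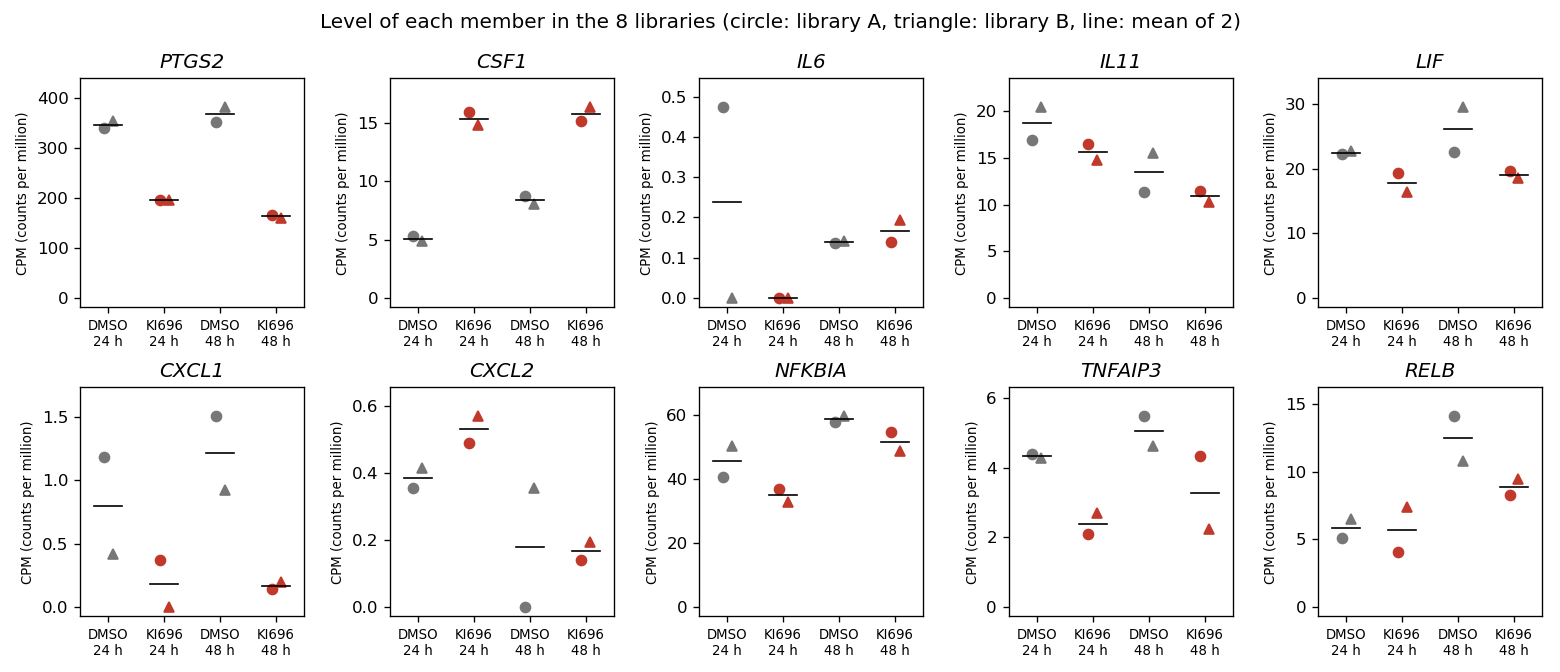
Level of each of the 10 genes in CPM (vertical axis, linear, starting near 0) in the 4 groups. Circles are library A, triangles library B and lines the mean of 2. PTGS2 lies at 161 to 197 CPM in the KI696 libraries and 341 to 383 CPM with DMSO, and CSF1 lies above both DMSO groups in both KI696 groups.

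IL6, IL11 and LIF are cytokines that signal through the shared receptor chain IL6ST (gp130), JAK kinases and STAT3. IL6 (chromosome 7, 22725884 to 22732002, plus strand) was close to absent, with 4 and 0 reads with DMSO at 24 h, 0 and 0 with KI696, 1 and 2 with DMSO at 48 h and 1 and 2 with KI696. No difference was detectable at this depth. Some of these few reads may belong to other genes, since 13.8% of the 75-base windows of its transcripts are shared with the antisense gene AC073072.1 and strand use is not given.

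IL11 (chromosome 19, 55364389 to 55370463, minus strand) had 17.0 and 20.5 CPM with DMSO and 16.5 and 14.8 CPM with KI696 at 24 h. At 48 h it had 11.4 and 15.6 CPM with DMSO and 11.5 and 10.3 CPM with KI696. The groups did not overlap at 24 h, by a small margin, and overlapped at 48 h. Neither change passed (−0.25, SE 0.17, limma adjusted p = 0.25 at 24 h; −0.29, SE 0.17, limma adjusted p = 0.18 at 48 h). The change at 48 h was −0.51 without DMSO 48 h A (limma adjusted p = 0.033) and −0.07 without DMSO 48 h B (limma adjusted p = 0.80).

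LIF (chromosome 22, 30240447 to 30246851, minus strand), leukaemia inhibitory factor, had 22.3 and 22.7 CPM with DMSO and 19.4 and 16.4 CPM with KI696 at 24 h. After 48 h it had 22.6 and 29.6 CPM with DMSO and 19.6 and 18.5 CPM with KI696. The groups did not overlap at either time. LIF fell by 0.44 at 48 h (SE 0.14, limma adjusted p = 0.020), and its change at 24 h was −0.33 (SE 0.14, limma adjusted p = 0.065). The call at 48 h was lost without DMSO 48 h B (−0.25) and without KI696 48 h B (−0.39). It was also lost with quantile scaling (−0.35, limma adjusted p = 0.052) and with no variance trend (limma adjusted p = 0.057). Windows shared with overlapping antisense genes made up 3.03% of LIF.

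Of the 20 listed genes of IL-6 family signalling, IL6, IL11 and LIF included, 17 were tested. At 24 h 9 were lower (median −0.64) and at 48 h 8, LIF among them (median −0.46). None was higher, except 1 at each time with quantile scaling. The receptor chain IL6ST fell by 0.36 at 24 h and 0.68 at 48 h (limma adjusted p = 9.36e-04 and 4.89e-06). The kinase JAK1 fell by 0.76 at both times (limma adjusted p = 1.37e-05 and 9.79e-06). The transcription factor STAT3 fell by 0.85 and 0.68, from 82.3 and 82.5 CPM to 44.7 and 46.6 CPM at 24 h and from 84.1 and 84.2 CPM to 56.8 and 48.6 CPM at 48 h. PIAS3, an inhibitor of STAT3, fell by 0.95 and 0.56. IL6ST, JAK1, STAT3 and PIAS3 were thus lower together, but 8 of the 17 tested genes were not called at 24 h and 9 at 48 h. Among those not called at either time were SOCS3 (−0.06 and 0.20, limma adjusted p = 0.82 and 0.38), CLCF1 (0.28 and 0.19) and SOCS1 (−0.64 and −1.24).

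LIFR, a receptor chain of LIF, had 21.7 and 19.8 CPM with DMSO and 5.51 and 5.27 CPM with KI696 at 24 h. By 48 h it had 19.4 and 18.8 CPM with DMSO and 15.6 and 9.98 CPM with KI696. LIFR fell by 1.90 at 24 h (SE 0.19, limma adjusted p = 4.63e-06) and by 0.60 at 48 h (SE 0.19, limma adjusted p = 0.016), the latter call being lost without DMSO 48 h A (−0.58) or KI696 48 h B (−0.29), while it was −0.92 without KI696 48 h A. OSMR, the receptor of oncostatin M, fell at 24 h from 23.3 and 21.0 CPM to 0.490 and 2.28 CPM (−4.04, SE 0.71, limma adjusted p = 4.83e-04). At 48 h OSMR had 17.97 and 4.90 CPM with DMSO and 16.7 and 2.91 CPM with KI696, so that it was high in both A libraries and low in both B libraries, like the lung lineage markers. With their level as a covariate the OSMR change at 24 h was −1.12 (limma adjusted p = 0.15).

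CXCL1 and CXCL2 attract neutrophils through the receptor CXCR2. CXCL1 (chromosome 4, 73869393 to 73871242, plus strand) had 10 and 3 reads with DMSO and 3 and 0 with KI696 at 24 h. At 48 h it had 11 and 13 reads with DMSO and 1 and 2 with KI696. The KI696 libraries were at or under the lower DMSO library at 24 h and well under both at 48 h. The ratio of CPM from the summed reads was 0.24 at 24 h (exact 95% counting interval 0.043 to 0.87) and 0.15 at 48 h (0.029 to 0.50), and the intervals cover counting error only. CXCL1 fell at 48 h (−1.81 on the log2 scale, SE 0.68, limma adjusted p = 0.042), and the change at 24 h was −1.34 (SE 0.68, limma adjusted p = 0.12). The call at 48 h was lost in 7 of 19 alternatives, among them without either 48 h library of either group (limma adjusted p = 0.070 to 0.20). It was also lost without DMSO 24 h A (0.063) and DMSO 24 h B (0.052).

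CXCL2 (chromosome 4, 74097035 to 74099293, minus strand) had 3 and 3 reads with DMSO and 4 and 4 with KI696 at 24 h, then 0 and 5 with DMSO and 1 and 2 with KI696 at 48 h. The ratio of CPM was 1.38 at 24 h (exact 95% counting interval 0.42 to 4.81) and 0.73 at 48 h (0.11 to 3.77), so a difference was not detectable at this depth. CXCL2 shares 7.07% of its 75-base windows with CXCL1 or CXCL3, and CXCL1 shares 0.25% with CXCL2. The related chemokine CXCL8, listed under its older symbol IL8, had 38 and 20 reads with DMSO against 10 and 2 with KI696 at 24 h. After 48 h it had 50 and 81 reads against 14 and 19. IL8 fell by 2.11 at 24 h (SE 0.44, limma adjusted p = 0.0015) and by 1.61 at 48 h (SE 0.44, limma adjusted p = 0.0079), and the change at 24 h was −1.37 without KI696 24 h B (limma adjusted p = 0.019). Of the 22 listed chemokine genes and receptors, CXCL1 and CXCL2 included, 4 were tested. At 24 h 1 was lower and at 48 h 3, CXCL1 among them (1 with quantile scaling), with none higher.

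NFKBIA (chromosome 14, 35401511 to 35404749, minus strand) encodes IkB-alpha, the inhibitor that NF-kB itself induces. Its level was 40.8 and 50.4 CPM with DMSO and 37.0 and 32.9 CPM with KI696 at 24 h. By 48 h it was 58.0 and 59.8 CPM with DMSO and 54.7 and 48.9 CPM with KI696. The groups did not overlap at either time, and the DMSO libraries were higher at 48 h. NFKBIA fell by 0.38 at 24 h (SE 0.11, limma adjusted p = 0.011), and the change at 48 h was −0.19 (SE 0.11, limma adjusted p = 0.17). The call at 24 h was lost without DMSO 24 h B (−0.22, limma adjusted p = 0.16) or KI696 24 h B (−0.29, limma adjusted p = 0.12), and with the lung lineage covariate (−0.25, limma adjusted p = 0.30).

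TNFAIP3 (chromosome 6, 137867188 to 137883312, plus strand) encodes A20, a ubiquitin-editing enzyme that ends NF-kB signalling. Its level was 4.39 and 4.29 CPM with DMSO and 2.08 and 2.71 CPM with KI696 at 24 h. At 48 h it was 5.49 and 4.62 CPM with DMSO and 4.35 and 2.23 CPM with KI696. TNFAIP3 passed at 24 h by a narrow margin (−0.81, SE 0.31, limma adjusted p = 0.047), and the call was lost in 13 of 19 alternatives. These included each library left out except KI696 48 h A and B (−0.98 to −0.64, limma adjusted p = 0.052 to 0.23), TMM scaling (limma adjusted p = 0.069) and the lung lineage covariate, where the change was 0.07. The change at 48 h was −0.65 (SE 0.31, limma adjusted p = 0.10), and it was −1.10 without KI696 48 h A (limma adjusted p = 0.013) and −0.20 without KI696 48 h B (limma adjusted p = 0.65). TNFAIP3 shares 0.43% of its windows with the antisense gene AL357060.1.

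Among the 6 tested IkB family genes, NFKBIA included, 1 was higher and 3 lower at 24 h, and 1 was higher and 2 lower at 48 h. NFKBIZ encodes IkB-zeta, a nuclear cofactor needed for some secondary NF-kB targets. It had 15.9 and 14.8 CPM with DMSO against 6.00 and 5.42 CPM with KI696 at 24 h, and 18.8 and 22.5 against 7.15 and 6.30 CPM at 48 h. NFKBIZ fell by 1.39 (SE 0.16, limma adjusted p = 2.06e-05) and 1.58 (SE 0.16, limma adjusted p = 5.14e-06). NFKBIB, which encodes IkB-beta, rose by 0.64 and 0.89 (limma adjusted p = 8.44e-05 and 4.11e-06). BCL3, a nuclear IkB protein, fell by 0.90 and 0.93 (limma adjusted p = 0.012 and 0.0096), calls lost at 24 h without DMSO 24 h A (−0.82) or KI696 24 h B (−0.40), with quantile scaling (−0.56) and with the covariate (−0.52), and at 48 h without DMSO 48 h A (−0.76) or KI696 48 h B (−0.73). Without KI696 24 h A the BCL3 change at 24 h was −1.40.

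Of the 14 feedback genes listed, TNFAIP3 included, 12 were tested, and 9 were lower at 24 h (median −0.35) and 4 at 48 h (median −0.25), with none higher, except 1 at 48 h with quantile scaling. TAX1BP1 and RNF11, adaptor partners of A20, fell by 0.33 and 0.36 at 24 h and by 0.36 and 0.57 at 48 h. The RNF11 call at 24 h was lost with the covariate (−0.36, limma adjusted p = 0.063). ITCH, the ubiquitin ligase of the same complex, fell by 0.48 at 24 h (limma adjusted p = 1.89e-04), and its change at 48 h was −0.08 (limma adjusted p = 0.40). CYLD, a deubiquitinase, fell by 0.46 at 24 h, a call lost with the covariate (−0.44, limma adjusted p = 0.083), and its change at 48 h was −0.25 (limma adjusted p = 0.068).

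RELB (chromosome 19, 45001430 to 45038198, plus strand) encodes the transcription factor subunit of the non-canonical NF-kB route. Its level was 5.10 and 6.50 CPM with DMSO and 4.04 and 7.41 CPM with KI696 at 24 h. After 48 h it was 14.1 and 10.8 CPM with DMSO and 8.27 and 9.49 CPM with KI696. The 24 h groups overlapped, and the 48 h groups did not. The changes were −0.07 at 24 h (SE 0.26, limma adjusted p = 0.85), which became 0.03 with TMM or median-ratio scaling and 0.41 with quantile scaling, and −0.47 at 48 h (SE 0.26, limma adjusted p = 0.16). In the DMSO libraries RELB rose by 1.07 from 24 to 48 h (SE 0.26, limma adjusted p = 0.022), a call that held in 14 of 20 alternatives. It was lost without DMSO 24 h A (0.90), DMSO 24 h B (1.24) or DMSO 48 h A (0.88).

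Of the 5 NF-kB subunits, 3 were lower at 24 h and none at 48 h. RELA had 92.7 and 86.1 CPM with DMSO and 75.7 and 71.7 CPM with KI696 at 24 h (−0.28, SE 0.09, limma adjusted p = 0.021), and its change at 48 h was −0.03 (0.04 with TMM scaling). NFKB1 and NFKB2 changed by −0.24 and −0.30 at 24 h (limma adjusted p = 0.035 and 0.016). None of these 3 calls held with TMM or median-ratio scaling. The RELA call was also lost without DMSO 24 h A (−0.22), KI696 24 h A (−0.32) or KI696 24 h B (−0.24). That of NFKB1 was lost without DMSO 24 h A (−0.16) or KI696 24 h A (−0.18), and that of NFKB2 without DMSO 24 h B (−0.26), KI696 24 h A (−0.28) or KI696 24 h B (−0.31).

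The kinases and adaptors upstream of NF-kB moved in both directions. Of 23 tested, 7 were higher and 6 lower at 24 h (median 0.01), or 8 higher and 2 lower with quantile scaling, and 5 were higher and 8 lower at 48 h (median −0.12). TRAF3, which restrains the non-canonical route, rose by 0.94 at 24 h and 0.90 at 48 h (limma adjusted p = 4.82e-06 and 4.71e-06), from 34.4 and 38.2 CPM to 73.7 and 65.9 CPM at 24 h. CHUK, which encodes the IKK-alpha kinase, rose by 0.49 and 0.48, and UBE2N, a ubiquitin-conjugating enzyme, by 0.46 and 0.37. MYD88, the adaptor of interleukin 1 and Toll-like receptors, fell by 0.66 and 0.72 (limma adjusted p = 4.06e-04 and 1.71e-04), and RIPK1, the kinase of the TNF receptor complex, by 0.40 and 0.71. The RIPK1 call at 24 h was lost with the covariate (limma adjusted p = 0.053), where the change was −0.42 with an SE of 0.16, against 0.09 without it.

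Receptors that feed NF-kB, with EGFR added, were measured as a list of 16, of which 12 were tested. At 24 h 1 was higher and 3 lower, and at 48 h 2 were higher and 3 lower. LTBR rose by 0.20 at 24 h and 0.27 at 48 h (limma adjusted p = 0.048 and 0.00998). TNFRSF1A rose by 0.38 at 48 h (limma adjusted p = 0.0043), and its change at 24 h was 0.20 (limma adjusted p = 0.096). Whether the LTBR and TNFRSF1A calls held in the alternatives was not examined. TLR4, the receptor of bacterial lipopolysaccharide, fell from 109 and 105 CPM to 73.7 and 65.3 CPM at 24 h and from 125 and 149.7 CPM to 70.9 and 78.5 CPM at 48 h (−0.62 and −0.87, limma adjusted p = 1.30e-04 and 6.20e-06). IL1R1, the interleukin 1 receptor, had 39 and 30 reads with DMSO and 0 and 3 with KI696 at 24 h. By 48 h it had 33 and 12 reads with DMSO and 29 and 4 with KI696, again higher in both A libraries. The IL1R1 change was −3.52 at 24 h (limma adjusted p = 0.0036) and −0.47 at 48 h (limma adjusted p = 0.67). The call at 24 h was lost with the lung lineage covariate (−0.21) and without KI696 24 h A (−2.79). Of the 12 ligands of these receptors listed, 3 were tested, and 2 were lower at 24 h and none at 48 h. TNF, IL1A and IL1B were on the list but had no row in the table under these symbols, so they were not analysed here.

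The widest list held 37 other known NF-kB targets, of which 29 were tested. At 24 h 2 were higher and 17 lower (median −0.59), and at 48 h 2 were higher and 18 lower (median −0.60). The 2 higher were CEBPB (0.43 and 0.58) and NAMPT (0.25 and 0.53) at both times, not examined in the alternatives. Another 10 at 24 h and 9 at 48 h were not called, among them SOD2 (0.04 and 0.15). The genes named next have the smallest p, and all were lower. IER3, an immediate early survival gene, fell by 1.08 and 0.89 (limma adjusted p = 2.17e-07 and 6.30e-07). CFLAR, an inhibitor of caspase 8 activation, fell by 1.09 and 1.03, from 75.8 and 74.9 CPM to 35.5 and 34.9 CPM at 24 h. SDC4, a cell surface proteoglycan, fell by 1.10 and 0.80, EREG, a ligand of the EGF receptor, by 1.28 and 1.38, and the survival gene BCL2L1 by 0.93 and 0.65. PLAUR, the urokinase receptor, fell by 0.87 at 48 h (SE 0.08, limma adjusted p = 3.16e-06) and by 0.30 at 24 h (limma adjusted p = 0.011). The PLAUR call at 24 h was lost with TMM or median-ratio scaling, with the covariate (−0.37) and without DMSO 24 h B (−0.25) or KI696 24 h B (−0.27).

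**Figure D2:**
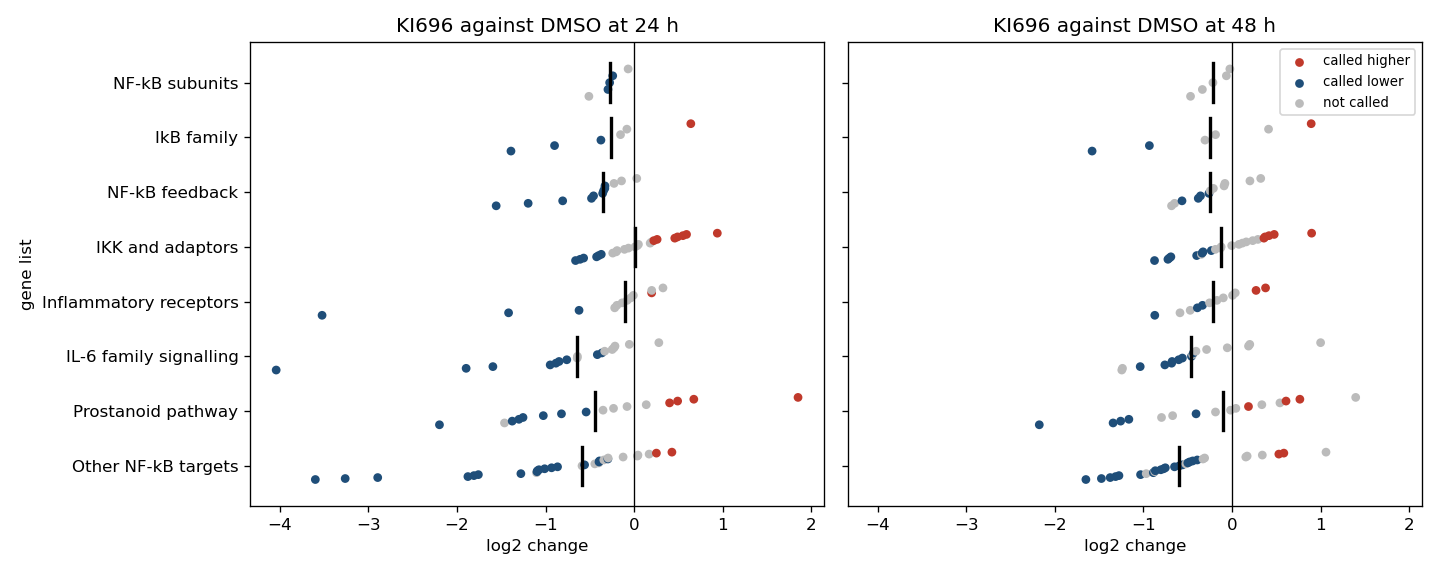
Log2 change with KI696 (horizontal axis) at 24 h (left) and 48 h (right) for every tested gene of 8 pathway lists, members included. Each point is 1 gene, coloured by its call at an adjusted p of 0.05, and the black bar is the median of the list. Points of the other NF-kB targets lie mostly left of 0 at both times (medians −0.59 and −0.60), and those of the kinases and adaptors lie on both sides (0.01 and −0.12).

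Of the 8 tested members, CSF1 was called higher at 24 h, and PTGS2, NFKBIA and TNFAIP3 were called lower. Of all genes tested, 18.1% were called higher and 30.5% lower at this time, 48.6% in all. At 48 h CSF1 was called higher, and PTGS2, LIF and CXCL1 lower, where 22.4% of all genes were called higher and 26.4% lower, 48.8% in all. The 4 of 8 members called at each time are thus near the share of all genes. PTGS2 and CSF1 were called at both times, as were 19.9% of all genes in the lower and 15.2% in the higher direction. The median change of the tested members was −0.35 at 24 h and −0.45 at 48 h, against −0.12 and −0.07 over all tested genes. With TMM scaling the median of all genes at 24 h moved to −0.01 and that of the members to −0.25. The higher share of all calls at 24 h rose from 37.2% to 51.5% with it.

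Groups that did not overlap show the same order. At 24 h the KI696 libraries lay below both DMSO libraries for PTGS2, IL11, LIF, CXCL1, NFKBIA and TNFAIP3 and above both for CSF1. Of all tested genes, 47.4% and 29.7% did so in these directions. For CXCL1, KI696 24 h A and DMSO 24 h B both had 3 reads, so that their order came from library size. CXCL2, which was not tested, also lay above, at 4 and 4 reads against 3 and 3. At 48 h PTGS2, LIF, CXCL1, NFKBIA, TNFAIP3 and RELB lay below and CSF1 above, against 40.5% and 32.5% of all tested genes.

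None of the 8 members had a called difference between the 48 h and 24 h effects in limma, and 0.848% of all genes had one. At an unadjusted p under 0.05 there were 2 such members, PTGS2 and CSF1, and 2113 genes in all. The voom alternative also called 0 members. With DMSO alone, CSF1, NFKBIA and RELB rose from 24 to 48 h, where 5.29% of all genes were called higher and 4.35% lower, 9.64% in all. The NFKBIA rise was 0.38 (SE 0.11, limma adjusted p = 0.045) and held in 11 of 20 alternatives. It was lost without DMSO 24 h A (0.22), DMSO 48 h A (0.40), DMSO 48 h B (0.35) or either KI696 24 h library (0.38, limma adjusted p = 0.077 and 0.074). Because both effects use these DMSO libraries, the KI696 changes at 24 and 48 h are set against different starting levels for these 3 genes.

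**Figure D3:**
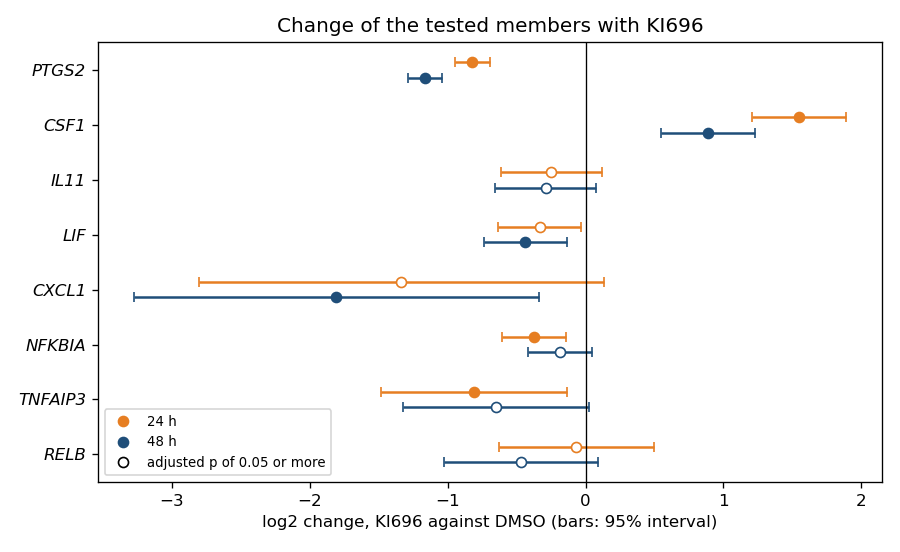
Log2 change with KI696 (horizontal axis) of the 8 tested members at 24 h (orange) and 48 h (blue), with 95% intervals from limma. Filled points passed an adjusted p of 0.05. PTGS2 lies at −0.82 and −1.17 and CSF1 at 1.55 and 0.89, while the intervals of CXCL1 are the widest.

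Levels were compared between genes per length, as CPM per kilobase of annotated exons in the DMSO libraries at 24 h. PTGS2 was highest with 66.0 CPM per kb, followed by NFKBIA with 19.2, IL11 with 7.01, LIF with 5.67 and RELB with 1.91. CSF1 had 0.940, TNFAIP3 0.859, CXCL1 0.618, CXCL2 0.257 and IL6 0.115 CPM per kb. Neighbours in this order had separate ranges over the 2 libraries, except TNFAIP3 and CXCL1. CXCL1 (0.916 and 0.320 CPM per kb) also overlapped CSF1 (0.986 and 0.894). The order of the lowest genes rests on few reads, with 10 and 3 for CXCL1, 3 and 3 for CXCL2 and 4 and 0 for IL6. With KI696 at 48 h PTGS2 remained first with 31.1 CPM per kb, NFKBIA had 21.8, and CSF1 had 2.91 beside RELB with 2.93.

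The genes whose pattern was most like that of PTGS2 and CSF1 were found by Pearson's r of log2 values over the 8 libraries, among 10670 tested genes with a mean of at least 5 CPM. For PTGS2 these were FLJ35282 (r = 0.998), N4BP2 (0.997) and HGSNAT, a lysosomal acetyltransferase (0.997). HGSNAT had 50.2 and 50.1 CPM with DMSO and 21.8 and 20.2 CPM with KI696 at 24 h, and 51.9 and 63.7 against 17.0 and 16.5 CPM at 48 h. For CSF1 these were ABHD4 (0.992), IL17RB, a receptor of interleukin 17 family cytokines (0.992), and ELOF1 (0.986). ABHD4 had 36.2 and 35.7 CPM with DMSO and 65.3 and 65.2 CPM with KI696 at 24 h, and 47.8 and 44.9 against 61.4 and 61.5 CPM at 48 h. The libraries share treatment and time, so these values describe likeness over 4 groups of 2.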

How the data were processed

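Values were log2 CPM with a small added count, deposited by the authors as 1 table. This was read from the values, which share a floor of −2.05 (0.242 CPM) and step in whole reads on the linear scale, to within 2.42e-09 of a read. Per the submitters' processing notes, the hg38 build, R 4.0.3 and edgeR were used. The sources used here do not give the aligner, counter, strand setting or gene filter. Reads and CPM were recovered from the steps. Symbols turned into dates (21) were left out. Of 14535 genes, 13213 with at least 1 CPM in 2 libraries were tested on the deposited log2 values with limma 3.58.1 (R 4.3.3): group means over all 8 libraries, variance trend, two-sided, adjusted by Benjamini-Hochberg over the tested genes at 0.05, with 4 residual degrees of freedom and 13.1 in all. Fold changes of low genes are understated by the added count. Depth was 6974235 to 14170211 reads.

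The members and gene lists were chosen with earlier results of these data known. Beside the members, up to 6 genes per list with the smallest p could be named, and the 3 genes most like PTGS2 and CSF1. Some that qualify are left out, and a few others, such as CEBPB and SOCS3, are named to show genes that rose or were not called. Alternatives were scaling (TMM, median-ratio, quantile), filters, pseudocounts of 0.25, 1 and 5 CPM, no variance trend, 2 groups only, the mean of the lung lineage markers as covariate, voom weights and each library left out. Where alternatives that lost a call are named without a count, others may also have lost it. Positions are from GENCODE release 29. The fit was also run on simulated data with a fixed spread and no shift in library composition. That run checks the code and not the calls made here.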

Additional observations from a re-analysis of the deposited data

Results flagged for a closer look

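Among the genes named, 3 had KI696 effects that differed between 48 h and 24 h by a test of the difference itself in limma. LIFR, the receptor of LIF, had a difference of 1.29 on the log2 scale (SE 0.26, limma adjusted p = 0.041), with a smaller fall at 48 h in both KI696 libraries. The LIFR call was lost in 11 of its alternatives, among them without each library except DMSO 48 h A and KI696 48 h B (0.98 to 1.36, limma adjusted p = 0.064 to 0.22) and with the lung lineage covariate (0.71). PLAUR, the urokinase receptor, had a difference of −0.57 (SE 0.12, limma adjusted p = 0.047). Its level with KI696 was 47.4 and 45.5 CPM at 24 h and 40.5 and 40.7 CPM at 48 h. With DMSO it was 55.4 and 58.8 and then 69.7 and 79.0 CPM, a called rise of 0.38 (limma adjusted p = 0.014). The larger fall at 48 h thus holds a rise with DMSO as well as lower levels with KI696. The PLAUR call was lost in 10 alternatives, including without each 24 h library (−0.61 to −0.53), DMSO 48 h B (−0.48) or KI696 48 h A (−0.57). NQO1, an NRF2 target used to check the treatment, had a difference of 1.04 (SE 0.15, limma adjusted p = 0.0097), with 1824 and 1852 CPM at 24 h and 1939 and 2273 CPM at 48 h with KI696, against 521 and 486 and then 320 and 244 CPM with DMSO. The NQO1 call was lost without each 24 h library (0.99 to 1.09). It was also lost with no filter (limma adjusted p = 0.054) and with no variance trend (limma adjusted p = 0.25). Explanations for these differences were not tested.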

How the results depend on the processing

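PTGS2 and CSF1 kept direction and call at both times in all 20 alternatives. Of 4 members called at 24 h, 2 were called with no variance trend and 2 with the lung lineage covariate, and 2 to 4 with 1 library left out. Of 4 at 48 h, 2 were called with quantile scaling and 2 to 4 with 1 library left out. For the difference of the effects (0 members), 1 was called with median-ratio scaling (PTGS2), and 0 to 1 with 1 library left out. For DMSO at 48 h against 24 h (3 members), 1 was called with no filter, 1 with no variance trend, 1 with only the 2 groups, 0 with the covariate, and 0 to 3 with 1 library left out. Signs turned as follows; the cause was not tested. At 24 h TNFAIP3 was 0.070 with the covariate, and RELB was 0.033 with TMM, 0.027 with median-ratio, 0.41 with quantile scaling and 0.018 with the covariate, or −0.49 to 0.35 with 1 library left out. At 48 h RELA was 0.036 with TMM and 0.027 with median-ratio scaling. With 1 library left out, RELA was −0.15 to 0.095, NFKB1 −0.13 to 0.0050, OSMR −1.62 to 0.81 and IL1R1 −1.86 to 0.91. The difference of the effects was 0.0023 for IL11 and 0.0065 for LIF with the covariate, and for TNFAIP3 −0.0727 with quantile scaling and −0.80 with the covariate. With 1 library left out it was −0.26 to 0.18 for IL11, −0.29 to 0.088 for LIF, −1.14 to 0.19 for CXCL1, −0.29 to 0.61 for TNFAIP3 and −0.82 to 0.018 for RELB. In all, 546 member values kept direction and call, 47 lost a call, 9 gained one and 22 turned sign.

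Over all genes, the covariate moved the 24 h calls from 6422 to 3250 and those of the difference from 112 to 66. As the covariate differed between treatments at 24 h and can widen the error, the drop alone does not show dependence on lineage level. The difference gave 5 calls with no filter, 0 with no variance trend, 190 with a pseudocount of 5 CPM, and 1 to 530 with 1 library left out, with 79.5% higher against 66.7% with TMM scaling, 63.9% with median-ratio scaling and 53.0% with the covariate. DMSO at 48 h against 24 h gave 1274 calls, 153 with no variance trend, 791 with the covariate and 316 to 1646 with 1 library left out. At 24 h, 37.2% of calls were higher, against 51.0% with median-ratio and 51.3% with quantile scaling. Planned count-model tests were not run on values deposited as log2. No paired analysis was possible because the column headers carry no replicate numbers. A lone library was assumed to vary like the other groups. Counting error limits IL6, CXCL1 and CXCL2.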
